A study of Homo sapiens with 6 samples.

Results

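The genes described here are the receptors for fibroblast growth factors (FGFs) and the partners of FGFR4. They were chosen by name, as the rows of the deposited count table for FGFR1, FGFR2, FGFR3, FGFR4, FGFRL1, KLB, KL, FRS2, FRS3 and FGF19. Of these 10 genes, 8 were among the 33451 genes listed, and KL and FGF19 were not listed, so no value is given for them. The 6 libraries were made from mRNA of MDA-MB-453, an established human breast cancer cell line. The 25(OH)D group was grown for 5 days in medium with 100 nM 25(OH)D, the main circulating vitamin D metabolite, and the control group with the solvent, 0.1% alcohol. Each group had 3 libraries, all from this 1 cell line, and the comparison asks how 25(OH)D changes the transcriptome of these cells. The paper calls the libraries biological replicates without saying how the cultures were kept apart, so the p-values measure the spread between these libraries.

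FGFs signal by bringing receptor tyrosine kinases together on heparan sulfate at the cell surface, and the docking proteins FRS2 and FRS3 pass the signal on to the RAS and ERK cascade. FGF19 is an intestinal hormone that acts mainly through FGFR4 and needs the co-receptor beta-Klotho, encoded by KLB, in the liver, where it represses bile acid synthesis. Alpha-Klotho, encoded by KL, plays the same part for FGF23, a bone hormone that lowers vitamin D activation in the kidney. MDA-MB-453 cells are known to carry an activating mutation of FGFR4, and the gene counts used here do not separate its alleles.

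Levels are given as RPKM, which are reads divided by gene length and library total, so that genes of different length can be compared. Changes are given as the log2 fold change between the groups, positive where 25(OH)D was higher, from the quasi-likelihood test of edgeR on the counts. The Benjamini-Hochberg adjustment covered the 18183 genes that passed the low-count filter, and a gene was called changed at an adjusted p under 0.05. The libraries held between 33268860 and 40928176 counts, and 3 counts were worth between 0.0720 and 0.0921 CPM, which is counts over the library size after TMM scaling. Mitochondrial genes took 7.85% to 7.99% of the counts in control and 8.89% to 9.24% in 25(OH)D, without overlap between the groups, and the part of this difference in the results was not tested. Among markers of this line, ERBB2, SPDEF, GATA3 and FOXA1 all passed the low-count filter, which does not verify the label of the line. Their log2 fold changes were 0.22 for ERBB2, 0.40 for SPDEF, -0.80 for GATA3 and -0.46 for FOXA1, each called by edgeR. Of 9 fibroblast markers COL1A1 alone passed the filter (log2 fold change -0.18, called lower), and no other reached more than 16 counts in a library. The list summed to between 36.6 and 39.3 CPM in control and between 32.3 and 34.8 CPM in 25(OH)D. Nearly all of this was COL1A1, with 38.5, 38.1 and 35.9 CPM in control and 32.0, 33.0 and 34.3 CPM in 25(OH)D. The 6 leukocyte markers stayed at or below 18 counts and the 4 endothelial markers at or below 12 counts in each library. All libraries were from 1 cell line, so the COL1A1 values do not show fibroblasts in the cultures. In such bulk samples, fewer cells of a type and less RNA per cell cannot be told apart.

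The 3 sequences printed here show the bases before the transcribed part of the listed member with the highest level, FGFR4, of a receptor with a low level, FGFR3, and of the member with the lowest level, KLB. They come from RefSeq on GRCh38.p14, lie on the plus strand at chr5:177086665-177086885, chr4:1793043-1793292 and chr4:39406680-39406852, and run 5′ to 3′. Capitals mark the GC box GGGCGG, searched on both strands, so that a box on the minus strand appears as CCGCCC.
FGFR4: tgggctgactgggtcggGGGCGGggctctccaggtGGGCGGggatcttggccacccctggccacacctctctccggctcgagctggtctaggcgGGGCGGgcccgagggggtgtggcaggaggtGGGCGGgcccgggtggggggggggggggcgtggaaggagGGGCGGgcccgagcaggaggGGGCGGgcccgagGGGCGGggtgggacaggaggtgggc
FGFR3: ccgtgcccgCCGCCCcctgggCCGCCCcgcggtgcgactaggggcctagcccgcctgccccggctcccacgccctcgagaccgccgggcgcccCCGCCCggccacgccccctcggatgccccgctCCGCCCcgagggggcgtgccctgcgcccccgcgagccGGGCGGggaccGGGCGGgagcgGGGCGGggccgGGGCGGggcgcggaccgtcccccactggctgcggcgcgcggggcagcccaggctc
KLB: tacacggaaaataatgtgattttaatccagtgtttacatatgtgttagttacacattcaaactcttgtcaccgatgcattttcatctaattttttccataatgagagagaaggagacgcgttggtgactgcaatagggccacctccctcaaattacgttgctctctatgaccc
The FGFR4 stretch held 7 GC boxes, and 1.12% of the 35116 windows of 250 bases in the RefSeq table held as many. RefSeq gives FGFR4 a second window, at chr5:177089300-177089549, which held none and is not printed. FGFR3 held 8, a number reached in 0.584% of windows, at a level far below that of FGFR4. KLB held none, and 42.6% of all windows held at least 1. The vitamin D receptor is known to bind pairs of hexamers in the same direction with 3 bases between them. The hexamers searched, on both strands, were AGGTCA as well as AGTTCA, and GGTTCA next to GGGTCA. No such pair was in the windows of the 8 members that had any, a group that included KL, and 0.0655% of all windows held a pair. These matches describe letters in a short window.

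FGFR4, the receptor for FGF19, had by far the highest level of the listed members, and its level did not pass the test for a change with 25(OH)D. The gene lies at chr5:177086886-177098144 on the plus strand of GRCh38. Its level was 153.1, 154.8 and 161.8 RPKM in control and 145.2, 153.5 and 162.7 RPKM in 25(OH)D. The lowest and the highest value were both in 25(OH)D, and the groups overlapped. The mean was 156.6 ± 4.59 RPKM (SD, n = 3) in control and 153.8 ± 8.75 RPKM (SD, n = 3) in 25(OH)D. These values rest on 25129 to 30263 counts per library. The log2 fold change was 0.02 (SE 0.0434, edgeR adjusted p = 0.785), with a 95% interval from -0.07 to 0.11. Its sign depended on the scaling, since TMM factors gave 0.02 and library sizes alone gave -0.03. FGFR4 ranked 255 among the 33451 listed genes by mean RPKM, so that 99.2% of the genes were at or below its level.

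**Figure D1:**
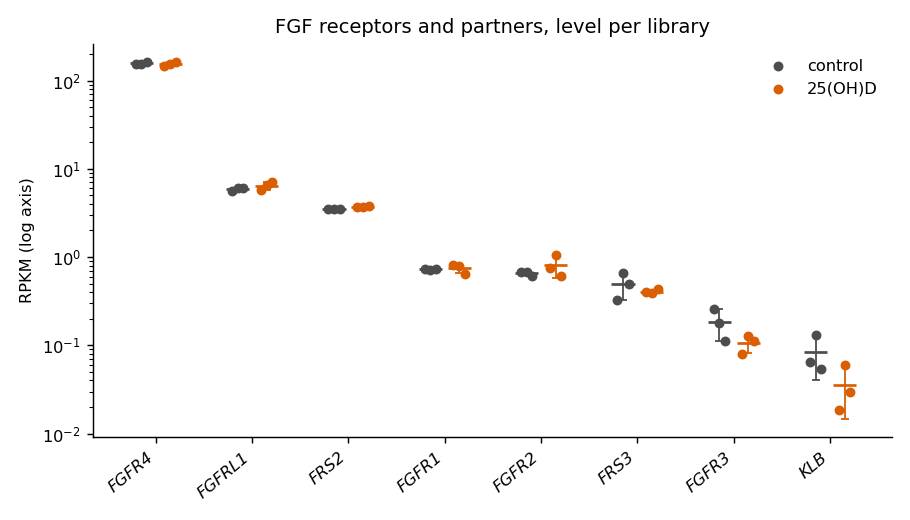
RPKM on a log axis of the 8 listed members in each of the 3 control and 3 25(OH)D libraries (points), with the mean and SD of each group (bars). FGFR4 lies near 155.2 RPKM in both groups, while FGFR1, FGFR2, FGFR3, FRS3 and KLB lie at or below 1.06 RPKM.

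The other receptors with a kinase domain, FGFR1, FGFR2 and FGFR3, were far below FGFR4 in every library. The control mean of FGFR4 was 216 times that of FGFR1, 238 times that of FGFR2 and 855 times that of FGFR3. These folds depend on the deposited length, which takes in all annotated exon bases, 12698 for FGFR1 and 4829 for FGFR4. In CPM, not divided by length, the control means were 745.3 for FGFR4, 9.08 for FGFR1, 4.86 for FGFR2 and 0.871 for FGFR3. FGFR4 made up 98.9%, 99.0% and 99.1% of the summed RPKM of the 4 kinase receptors in control and 98.9%, 98.7% and 99.2% in 25(OH)D. The shares overlapped and differed by -0.0817 percentage points (two-sided exact permutation test, p = 0.6), where 3 libraries against 3 can give no p below 0.1. Without 25(OH)D replicate 2 the difference was 0.0179 percentage points.

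FGFR1 lies at chr8:38411138-38468834 on the minus strand and is a receptor for many of the secreted FGFs. It had 0.731, 0.705 and 0.740 RPKM in control and 0.804, 0.788 and 0.651 RPKM in 25(OH)D. Among the latter, replicates 1 and 2 were above every control library and replicate 3 was below all of them. The change was 0.09 on the log2 scale (SE 0.105, edgeR adjusted p = 0.561), with a 95% interval from -0.14 to 0.31. A gene on the opposite strand shares 156 exon bases with FGFR1 and had at most 9 counts in a library. FGFR2 lies at chr10:121478334-121598458 on the minus strand and is known from epithelial cells, including those of the breast. Its level was 0.682, 0.679 and 0.615 RPKM in control and 0.746, 1.06 and 0.614 RPKM in 25(OH)D. In RPKM, replicate 2 of 25(OH)D was the highest and replicate 3 the lowest of all 6 libraries, so the groups overlapped. Replicate 3 was not the lowest in CPM, where it had 4.70 and control replicate 3 had 4.56. The log2 fold change of FGFR2 was 0.34 (SE 0.172, edgeR adjusted p = 0.149), with a 95% interval from -0.03 to 0.71. Leaving out 25(OH)D replicate 3 gave 0.51 (edgeR adjusted p = 0.0238), and FGFR2 was then called higher. Leaving out 25(OH)D replicate 2 instead gave 0.10 (edgeR adjusted p = 0.670), so the size of the value rests on that library.

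FGFR3, which restrains the growth of bone in its best known role, lies at chr4:1793307-1808872 on the plus strand. It had 51, 32 and 20 counts in control and 14, 24 and 18 counts in 25(OH)D. The means were 0.183 ± 0.0723 RPKM (SD, n = 3) and 0.107 ± 0.0240 RPKM (SD, n = 3). Control replicates 1 and 2 were above every 25(OH)D library, and control replicate 3 fell among the 25(OH)D libraries. The estimate was -0.73 on the log2 scale (SE 0.388, edgeR adjusted p = 0.171), with a 95% interval from -1.57 to 0.10. Leaving out each library gave between -0.97 (without control replicate 3) and -0.39 (without control replicate 1, edgeR adjusted p = 0.561), none of them called. At these counts a change in FGFR3 of the size its point estimate gives could not be told from no change.

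FGFRL1 encodes a receptor that binds FGFs and heparin but lacks the tyrosine kinase domain, and lies at chr4:1009936-1026897 on the plus strand. Its level was 5.55, 6.05 and 6.08 RPKM in control and 5.78, 6.53 and 7.04 RPKM in 25(OH)D. Replicates 2 and 3 of 25(OH)D were above every control library, and replicate 1 lay within the range of the control libraries. Its log2 fold change was 0.17 (SE 0.0798), with an unadjusted p of 0.0467 and an edgeR adjusted p of 0.112. Without 25(OH)D replicate 1 the log2 fold change was 0.25 (edgeR adjusted p = 0.0331), and FGFRL1 was then called higher, while without replicate 3 it was 0.12 (edgeR adjusted p = 0.315).

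KLB, the co-receptor that FGF19 needs, had the lowest level of the listed members and lies at chr4:39406853-39451536 on the plus strand. It had 16, 30 and 12 counts in control and 4, 14 and 6 counts in 25(OH)D. Replicates 1 and 3 of 25(OH)D were below every control library, and replicate 2 was above control replicate 3. The means were 0.0837 ± 0.0427 RPKM (SD, n = 3) in control and 0.0358 ± 0.0212 RPKM (SD, n = 3) in 25(OH)D. The log2 fold change was -1.15 (SE 0.542), with a 95% interval from -2.31 to 0.02, an unadjusted p of 0.0531 and an edgeR adjusted p of 0.124. KLB reached 10 counts in the 3 control libraries and in 1 library of 25(OH)D, so it passed the low-count filter largely through the group in which it was higher. Leaving out each library in turn gave log2 fold changes between -1.73 (without 25(OH)D replicate 2) and -0.66 (without control replicate 2), none of them called. The control mean of FGFR4 was 1871 times that of KLB.

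FRS2, the docking protein that activated FGF receptors phosphorylate, was the only listed member whose groups did not overlap in CPM, and it did not pass the test. The gene lies at chr12:69470349-69579789 on the plus strand. Its level was 25.2, 25.0 and 25.0 CPM in control and 27.2, 26.8 and 28.1 CPM in 25(OH)D. Every 25(OH)D library was thus above every control library, as was the case, in either direction, for 45.7% of all genes tested. In RPKM the means were 3.51 ± 0.0302 (SD, n = 3) and 3.72 ± 0.0741 (SD, n = 3). Its log2 fold change was 0.12 (SE 0.0621, edgeR adjusted p = 0.145), with a 95% interval from -0.01 to 0.26. FRS3, a related docking protein, lies at chr6:41770176-41786542 on the minus strand. It had 38, 71 and 51 counts in control and 41, 43 and 41 counts in 25(OH)D. The control libraries reached both below and above the 25(OH)D libraries. The log2 estimate was -0.23 (SE 0.289, edgeR adjusted p = 0.583), and it was 0.05 without control replicate 2. FRS3 shares 132 exon bases with PRICKLE4 on the opposite strand, which had 202 to 272 counts per library. The kit marks the strand, and the strand setting used in counting is not given in the sources used here.

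None of the 8 listed members was called changed by edgeR, against 33.8% of all genes tested. At an unadjusted p under 0.05 the count was 1 of 8, FGFRL1, against 42.2% of all genes tested. At the limits drawn in the study, a log2 fold change beyond 1 in either direction with an unadjusted p under 0.05, it was 0 of 8, against 6.65% of all genes tested. DESeq2 and limma on log2 RPKM also called none. Of the 8 log2 fold changes, 5 were above 0 and 3 below, with a median of 0.05, against -0.01 over all genes tested. Their intervals differed widely in width, from FGFR4 with at least 25129 counts in a library to KLB with at most 30, and missing the threshold does not show that a member was unchanged.

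**Figure D2:**
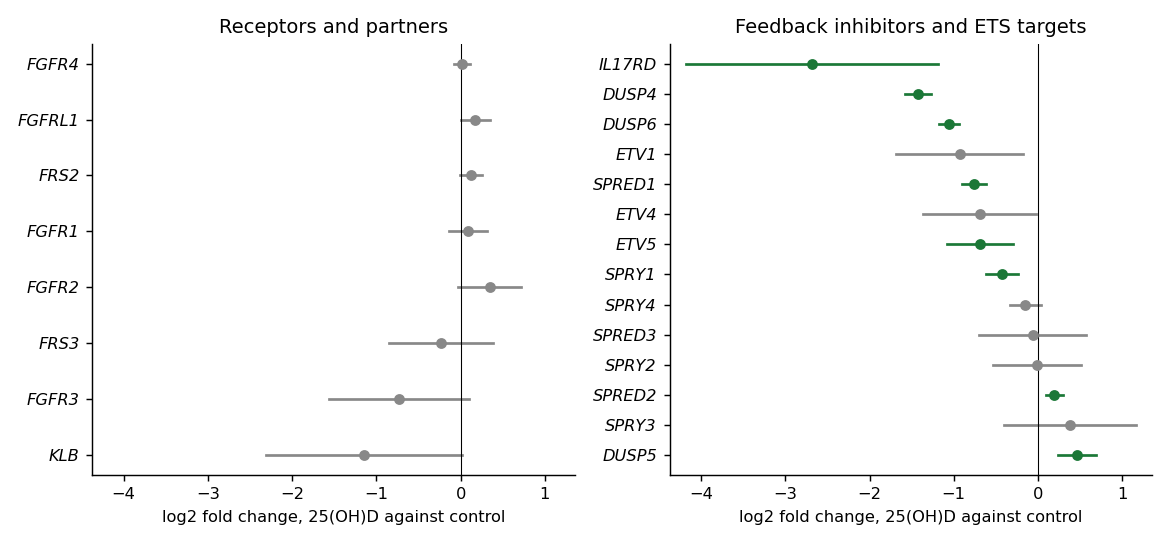
Log2 fold change of 25(OH)D against control with its 95% interval for the 8 listed members (left) and the 14 feedback inhibitors and ETS targets (right), green where the edgeR adjusted p was under 0.05. No member is green, and in the right panel 8 genes are, from IL17RD at -2.68 to DUSP5 at 0.46.

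By mean RPKM over the 6 libraries the order was FGFR4 (155.2), FGFRL1 (6.17), FRS2 (3.62), FGFR1 (0.737), FGFR2 (0.733), FRS3 (0.450), FGFR3 (0.145) and KLB (0.0597). The ranges over libraries of FGFR1 and FGFR2 overlapped, as did those of FGFR2 and FRS3 and those of FGFR3 and KLB, so their spreads over all libraries were not separate. Within libraries, FGFR2 was above FRS3 and FGFR3 above KLB in 6 of 6, and FGFR1 was above FGFR2 in 5 of 6. FGFR4 was compared with each of the 7 other listed members in the log2 ratio of their RPKM. The ratio of FGFR4 to KLB was higher by 1.25 on the log2 scale in 25(OH)D, the widest difference (two-sided exact permutation test, p = 0.2). The ratio of FGFR4 to FGFR3 was higher by 0.70 (exact permutation p = 0.2), and that to FGFRL1 differed by -0.15 (exact permutation p = 0.1). Adjusted over the 7 pairs, the exact permutation p-values were between 0.35 and 0.7, and 3 libraries against 3 could not pass 0.05.

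Among 12702 genes with a mean of at least 100 counts, those whose log2 CPM followed FGFR4 closely over the 6 libraries included SLC26A11, an anion transporter gene (Pearson r = 0.997), AC138645.1 (0.992), AUH (0.991) and AC138645.2 (0.991). The most opposite were ATF6B (-0.995) and TSNAX-DISC1 (-0.977). These 6 points share library scaling, and FGFR4 itself spanned only 0.17 on the log2 scale. The genes were picked as the extremes of 12702, so the values describe these libraries and were not tested.

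The other genes of the pathway were taken from lists chosen by function, with earlier results of these data known. Counts and medians thus describe these lists and do not test for a shift. As the background, 17.3% of all genes tested were called higher and 16.5% lower. Of 22 genes of the FGF family, not all of them receptor ligands, 13 were listed. FGF2, FGF11, FGF13 and FGF22, 4 in all, passed the filter, with a median log2 fold change of 0.01. FGF2, a secreted ligand of several receptors, had 2.16, 2.56 and 2.74 CPM in control and 2.56, 2.65 and 2.55 CPM in 25(OH)D (edgeR adjusted p = 0.836). FGF11, an FGF homologue that stays inside the cell, was called higher, with 0.408, 0.502 and 1.06 CPM in control and 1.51, 1.22 and 1.29 CPM in 25(OH)D. Its log2 fold change was 1.04 (SE 0.357, edgeR adjusted p = 0.0378). The call was lost in all but 1 of the fits that left out a library and in both limma fits, and 4175 of the 5565 exon bases of FGF11 also belong to another gene on the same strand, so its value is uncertain.

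Of the 19 adaptors and kinases from the receptor to ERK, all passed the filter, and 2 were called higher and 5 lower. This called share of 36.8% was near the 33.8% of all genes tested, and the median log2 fold change was -0.04. The largest fall was that of GAB1, an adaptor that binds GRB2, with 21.4, 21.3 and 21.6 CPM in control and 14.6, 15.0 and 15.7 CPM in 25(OH)D (log2 fold change -0.51, edgeR adjusted p = 6.72e-05). GRB2, which links FRS2 to the RAS activator SOS, fell by 0.21 on the log2 scale (edgeR adjusted p = 3.82e-04), and HRAS fell by 0.26 (edgeR adjusted p = 0.00165). MAP2K1, a kinase that activates ERK, rose by 0.46 (edgeR adjusted p = 7.25e-05). The rise of PTPN11, the phosphatase that FRS2 recruits, was 0.10 (edgeR adjusted p = 0.0492) and lay at the edge of the threshold. It was not called under 6 of the 9 alternatives with all libraries, where the edgeR or limma adjusted p was between 0.0547 and 0.276, nor in 5 of the 6 fits that left out a library. The other calls were MAP2K2 (edgeR adjusted p = 0.0439) and MAPK3 (edgeR adjusted p = 0.0468), both lower and also at the edge of the threshold. Neither MAP2K2 nor MAPK3 was called in any fit that left out a library. With any library omitted the number of calls was 4 to 5, and GAB1, GRB2, HRAS and MAP2K1 were called every time.

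Of the 14 feedback inhibitors and ETS factors, many of which are known to be switched on by ERK signalling, 6 were called lower and 2 higher. The called share was 57.1%, against 33.8% of all genes tested. The log2 fold changes of the 14 genes had a median of -0.56, against -0.01 over all genes tested, and 11 of the 14 values were below 0. As the list was chosen with earlier results of these data known, these contrasts are only descriptive. DUSP4, a phosphatase of ERK in the nucleus, had 54.2, 56.2 and 49.1 CPM in control and 21.2, 18.6 and 19.7 CPM in 25(OH)D. Every 25(OH)D library was below every control library, and the log2 fold change was -1.42 (SE 0.0715, edgeR adjusted p = 1.52e-09). DUSP6, a phosphatase of ERK in the cytoplasm, had 73.2, 76.3 and 79.0 CPM in control and 35.9, 35.1 and 38.8 CPM in 25(OH)D. The groups did not overlap, and the log2 fold change was -1.06 (edgeR adjusted p = 3.27e-09). DUSP6 shares 1875 exon bases with a gene on the opposite strand, which had 2373 to 2550 counts in control and 1075 to 1137 counts in 25(OH)D. Reads of such a pair can be told apart only if the strand was used in counting, and this also holds for MAP2K1 and PTPN11, which share exon bases with genes on the opposite strand.

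SPRED1, which restrains RAS through neurofibromin, fell by 0.76 on the log2 scale (edgeR adjusted p = 5.39e-07). The other genes called lower, named after their values were seen, were IL17RD, an inhibitor of FGF signalling at the receptor (-2.68, with at most 1.20 CPM in any library), ETV5, an ETS factor (-0.69), and SPRY1, a Sprouty inhibitor (-0.43). IL17RD had 50, 34 and 16 counts in control and 2, 12 and 0 counts in 25(OH)D. It thus passed the low-count filter largely through the group in which it was higher. DUSP5, a nuclear ERK phosphatase, rose by 0.46 (edgeR adjusted p = 0.00296), and SPRED2 rose by 0.20 (edgeR adjusted p = 0.00681). The other 6 genes, which include SPRY2, SPRY4, ETV1 and ETV4, had log2 fold changes between -0.93 and 0.38 and were not called.

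**Figure D3:**
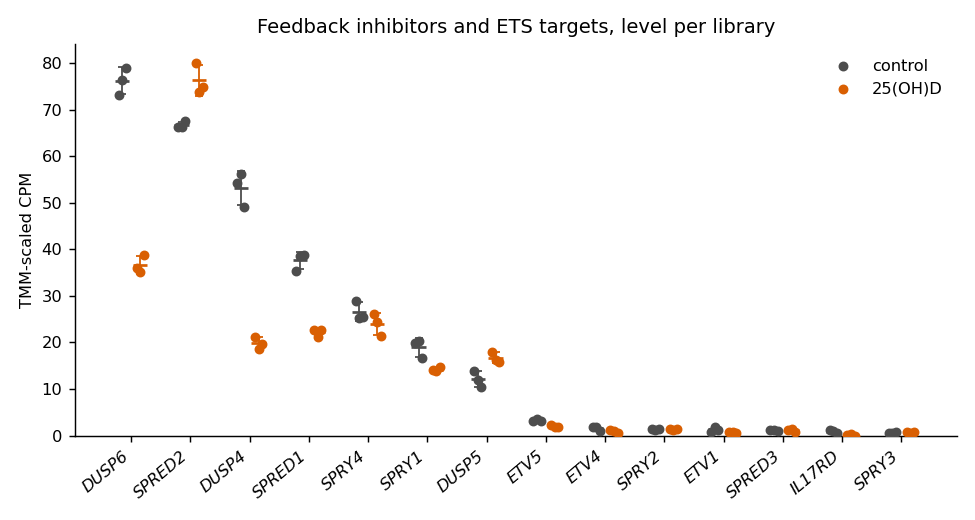
TMM-scaled CPM of the 14 feedback inhibitors and ETS targets in each library (points), with the mean and SD of each group of 3 (bars). The 25(OH)D libraries lie below every control library for DUSP4, DUSP6, SPRED1, SPRY1, ETV5 and IL17RD, and above for DUSP5 and SPRED2. The groups did not overlap, in either direction, for 45.7% of all genes tested.

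Heparan sulfate is the cell surface sugar that holds FGFs on their receptors. Of 19 genes that bind FGFs or build and trim heparan sulfate, 17 were listed and 14 passed the filter. By edgeR, 5 were called higher and none lower, a called share of 35.7%, near the 33.8% of all genes tested. Without 25(OH)D replicate 3, 6 were called higher and 1 lower. The 14 tested genes had a median log2 fold change of 0.08. HS6ST3, which adds 6-O-sulfate groups, had 14.3, 15.4 and 13.7 CPM in control and 29.8, 31.6 and 31.3 CPM in 25(OH)D. Its groups did not overlap, and the log2 fold change was 1.10 (edgeR adjusted p = 2.73e-08). SULF1, a secreted enzyme that removes 6-O-sulfate groups, had 8, 5 and 0 counts in control and 135, 102 and 96 counts in 25(OH)D. The rise was 4.78 on the log2 scale (SE 0.443, edgeR adjusted p = 1.09e-06), a size that rests on the few control counts. SULF1 stayed under 10 counts in every control library, so it passed the low-count filter only through the group in which it was higher. HS6ST1 rose by 0.69 (edgeR adjusted p = 1.47e-06), and EXT2 and HS2ST1 were the other genes called higher.

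**Figure D4:**
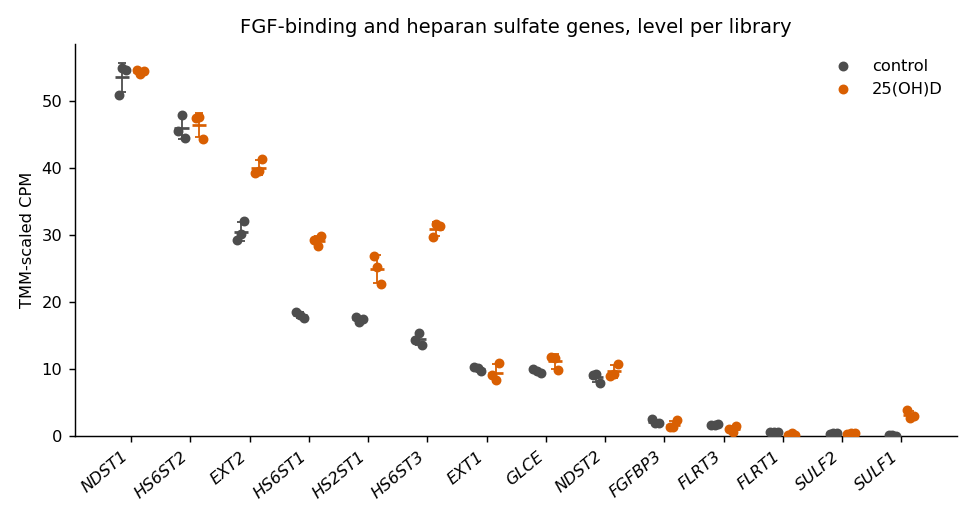
TMM-scaled CPM of the 14 tested FGF-binding and heparan sulfate genes in each library (points), with the mean and SD of each group of 3 (bars). HS6ST3 lies between 13.7 and 15.4 CPM in control and between 29.8 and 31.6 CPM in 25(OH)D, and SULF1 rises from at most 0.192 CPM to between 2.65 and 3.84 CPM.

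Of 7 genes where the FGF hormones and vitamin D meet, 4 were listed, 3 passed the filter, 1 was called higher and 1 lower, with a median log2 fold change of -0.06. VDR, the vitamin D receptor, had 81.7, 80.4 and 80.4 CPM in control and 138.9, 134.7 and 126.8 CPM in 25(OH)D. The groups did not overlap, and the log2 fold change was 0.72 (SE 0.0458, edgeR adjusted p = 1.94e-08). RXRA, its partner on DNA, fell by 0.37 (edgeR adjusted p = 0.00429). CYP27B1, the enzyme that activates 25(OH)D and that FGF23 represses in the kidney, was not called (-0.06, edgeR adjusted p = 0.761).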

How the data were processed

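The mRNA libraries of control (n = 3) and 25(OH)D (n = 3) MDA-MB-453 cells were prepared with a stranded kit and sequenced as paired ends. The authors deposited raw counts per gene, as whole numbers, and RPKM values. The deposited RPKM values were the counts over the deposited gene length (the "Length" column, in bases) and the library total, as checked on all values. The submitters' processing notes name Trimmomatic 0.36, featureCounts of Subread 1.5.1 and edgeR 3.12.1, and the exon positions are on GRCh38. The aligner and the annotation release are not given in the sources used here. Between 66.0% and 68.0% of the counts from 1 to 20 in each library were even, so the mates of a pair may have been counted separately, which would overstate the number of fragments behind a low count.

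Counts were tested in R 4.3.3 with edgeR 4.0.16 (TMM, filterByExpr with a minimum count of 10, quasi-likelihood test, no covariates) over 18183 genes. The test was run on simulated data first, with changes placed only in genes with a mean of at least 100 counts. That run thus does not bear on the members with low counts, KLB, FGFR3 and FRS3. Log2 CPM for patterns used a prior count of 2. Alternatives were DESeq2 1.42.0, limma 3.58.1 on log2(RPKM + 1) and log2(RPKM + 0.1), other scalings, no filter, counts halved and rounded up (chosen after seeing the data), the replicate number as a block, and the omission of each library. Members and lists were chosen with earlier results of these data known. In each list up to 3 called genes with the smallest p in each direction were named. Some genes among the line markers and the patterns like FGFR4 are not reported here. No replicates were copies of the same counts, since counts within a group differed by more than sampling noise (chi-square per gene at least 4.01). Mates counted separately would also raise this value, and it does not show that the libraries came from separate cultures. Promoter windows were taken from RefSeq (GRCh38.p14) and gene annotation from GENCODE 29. Python 3.11.15 with pandas 2.3.3, numpy 2.4.6 and matplotlib 3.10.9 was used for the rest.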

Additional observations from a re-analysis of the deposited data

How the results depend on the processing

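With all libraries, none of the 8 listed members was called under any of the 9 alternatives, which included DESeq2 and limma. KLB did not pass the low-count filter when the counts were halved, so 7 members were tested there. Leaving out each library in turn gave 0 to 1 called members. The log2 fold change of FGFR4 was -0.0236 with upper-quartile factors, -0.0256 with library sizes alone, -0.0265 with limma on log2(RPKM + 1) and -0.0266 with limma on log2(RPKM + 0.1), and -0.0164 to 0.0611 when each library was left out. None of these values was called. The difference in the FGFR4 share of the 4 kinase receptors ranged from -0.199 to 0.0179 percentage points over the omitted libraries. Over the same fits the ratio of FGFR4 to FGFR1 differed by -0.202 to 0.0324 and that to FRS3 by -0.0616 to 0.451 on the log2 scale, and FRS3 itself by -0.461 to 0.0495.

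The number of called adaptors and kinases was 4 without the low-count filter, 4 with the replicate block, against 7 with the filter and no block, and 4 to 5 over the omitted libraries. Called genes of the FGF family were 0 with both limma fits and 0 to 1 over the omitted libraries. Genes past the limits of the study numbered 1209 and fell to 313 with limma on log2(RPKM + 1). The cause of these moves was not tested. Same-numbered libraries did not deviate together (correlations -0.0721, -0.0120 and -0.0460), so the numbers were not taken as pairs, and with the block the count of called adaptors was the one count that moved by over 1.5 times. Depth limits KLB, FGFR3 and FRS3, with at most 71 counts in a library.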
